A study of Homo sapiens with 6 samples.

Results

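Heme oxygenase, ferritin and antioxidant genes were followed in HCT116 cells after treatment with PLOD3 siRNA. The group held 10 of the 60612 genes of the deposited table, found by exact gene name: HMOX1, BLVRB, FTL, FTH1, TXNRD1, GCLC, GCLM, SRXN1, NQO1 and SLC7A11. They were selected on their FPKM and fold changes between PLOD3 siRNA and si NC in these same samples, so that difference is described for them without a test. HCT116 is an established epithelial line of human colorectal cancer, and the question behind the series is the part of PLOD3, a lysyl hydroxylase and glycosyltransferase acting on collagen, in that disease. RNA was sequenced after ribosomal RNA removal from 3 samples given PLOD3 siRNA and 3 samples given the control siRNA si NC, each over 2 days. All 6 shared the cell line, the DMEM and serum culture and the siRNA treatment itself. The labels name 1 PLOD3 siRNA without its sequence, so a change that follows the loss of PLOD3 and a change that follows another action of that siRNA cannot be told apart.

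HMOX1 opens the heme ring and releases its iron with biliverdin and carbon monoxide, and ferritin, a shell built of FTL and FTH1 chains, stores iron that would otherwise feed radical chemistry. The transcription factor NRF2, encoded by NFE2L2, is held low by KEAP1 and, when released, pairs with small Maf proteins at antioxidant response elements of genes for glutathione synthesis, thioredoxin recycling, quinone reduction and heme and iron handling. BACH1 occupies many of the same elements as a repressor that heme displaces, and SLC7A11, glutathione and ferritin iron are all known for setting how easily colorectal cancer cells undergo iron-dependent lipid peroxidation.

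The promoter sequences show where letters of the antioxidant response element lie near the starts of the genes that could be matched. RefSeq promoter windows of the GRCh38.p14 assembly, from 250 bases before to 50 bases after the start, were matched for 7 of the 10 genes (BLVRB, FTL, TXNRD1, GCLC, GCLM, SRXN1 and NQO1), with 8 windows because TXNRD1 has 2 starts. The core TGACNNNGC, or GCNNNGTCA when read on the opposite strand, occurred in 3 of these 8 windows, those of TXNRD1 and GCLM, and in 4687 of 35116 windows of all genes, which is 13.3%. The matched stretches are printed on the gene's strand, 5′ to 3′, with 1 core in capitals in each. The GCLM stretch (chr1:93909431-93909504, minus strand) holds it at -34 to -26 from the start, the upstream TXNRD1 start (chr12:104215640-104215728, plus strand) at -99 to -91 and again, outside the printed stretch and on the opposite strand, at -8 to 1, and the downstream TXNRD1 start (chr12:104286890-104286978, plus strand) at -102 to -94. The fourth line is the iron-responsive site of FTL (chr19:48965329-48965358, plus strand), with its loop letters in capitals at bases 39 to 44 of the transcript. This site is a hairpin in the 5′ UTR at which iron regulatory proteins are known to block ferritin translation when iron is scarce. The loop letters CAGTGN occurred on the gene's strand in the first transcribed bases of 6.36% of all windows.
GCLM: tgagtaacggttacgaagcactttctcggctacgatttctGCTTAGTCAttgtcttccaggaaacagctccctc
TXNRD1, upstream start: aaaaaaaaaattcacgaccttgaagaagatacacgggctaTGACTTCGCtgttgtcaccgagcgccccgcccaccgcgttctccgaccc
TXNRD1, downstream start: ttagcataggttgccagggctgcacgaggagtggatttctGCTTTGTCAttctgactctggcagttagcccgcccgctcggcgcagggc
FTL: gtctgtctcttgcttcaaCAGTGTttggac
These matches are letters in a window, and binding was not measured in this series. Sequence outside the windows was not searched, so a gene without a match may hold the element elsewhere.

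Estimated counts, of which about 4 units appeared to stand for 1 read pair, summed to 55416555 to 71736017 in PLOD3 siRNA samples and to 57457602 to 76802428 in si NC samples. PLOD3 itself had 3.44, 3.40 and 4.05 FPKM (fragments mapped per kilobase of transcript, relative to the library's mapped total) in PLOD3 siRNA replicates 1 to 3, against 6.40, 7.16 and 6.22 FPKM in si NC replicates 1 to 3. Its log2 fold change was -0.85 (SE 0.108, edgeR quasi-likelihood test, Benjamini-Hochberg adjusted p = 0.0028), and it was lower in 3 of 3 samples. Of 12000 genes with a mean of at least 1 FPKM over the 6 samples, 4307 passed an adjusted p of 0.05, so a call was common. Of 10 colorectal epithelial markers, 6 had a mean of at least 1 FPKM, CDX1 was at 0 in every library, 0 passed the test as higher and 3 passed as lower (CDH1, KRT18 and KRT19). Their summed level was 562 to 638 FPKM in PLOD3 siRNA samples and 666 to 720 FPKM in si NC samples. Total FPKM over all genes was also lower in every PLOD3 siRNA library (357209 to 377471) than in every si NC library (386459 to 403665). Relative to that total, the summed epithelial levels of the groups overlap. Marker sums of other cells were low: 0.109 to 0.234 FPKM in PLOD3 siRNA and 0.266 to 0.431 FPKM in si NC for 6 leukocyte genes (PTPRC, CD3E and TYROBP at 0), and 0.564 to 0.700 FPKM in PLOD3 siRNA and 0.751 to 1.28 FPKM in si NC for 6 erythroid genes. For 6 endothelial genes (CDH5 and EMCN at 0) the sums were 0.147 to 0.152 FPKM in PLOD3 siRNA and 0.0945 to 0.307 FPKM in si NC. The 6 fibroblast genes (DCN and LUM at 0) summed to 1.45 to 1.91 FPKM in PLOD3 siRNA and 2.62 to 2.69 FPKM in si NC. Most of this sum was the collagen gene COL1A1, at means of 1.65 FPKM in PLOD3 siRNA and 2.35 FPKM in si NC. COL1A1 passed as lower (log2 -0.50, edgeR adjusted p = 0.0147).

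After PLOD3 siRNA, 9 of the genes were more abundant and the ferritin heavy chain gene FTH1 was less abundant. For each of the 10 the groups did not overlap in FPKM. Relative to each library's total FPKM, the groups overlap for FTH1. In the fit over all genes 9 of the 10 passed the threshold, where 35.9% of all 12000 genes did. All 9 passed as higher, where 16.5% of all genes did, and 0 passed as lower, where 19.4% did. The gene that did not pass was FTH1. Groups without overlap, in either direction, were found for 52.1% of all genes. The median log2 fold change was 0.39 over the 10 genes and 0.00 over all tested genes. These shares were fixed by how the genes were picked and carry no independent weight. In bulk RNA, fewer cells of a type and less RNA per cell cannot be told apart.

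**Figure D1:**
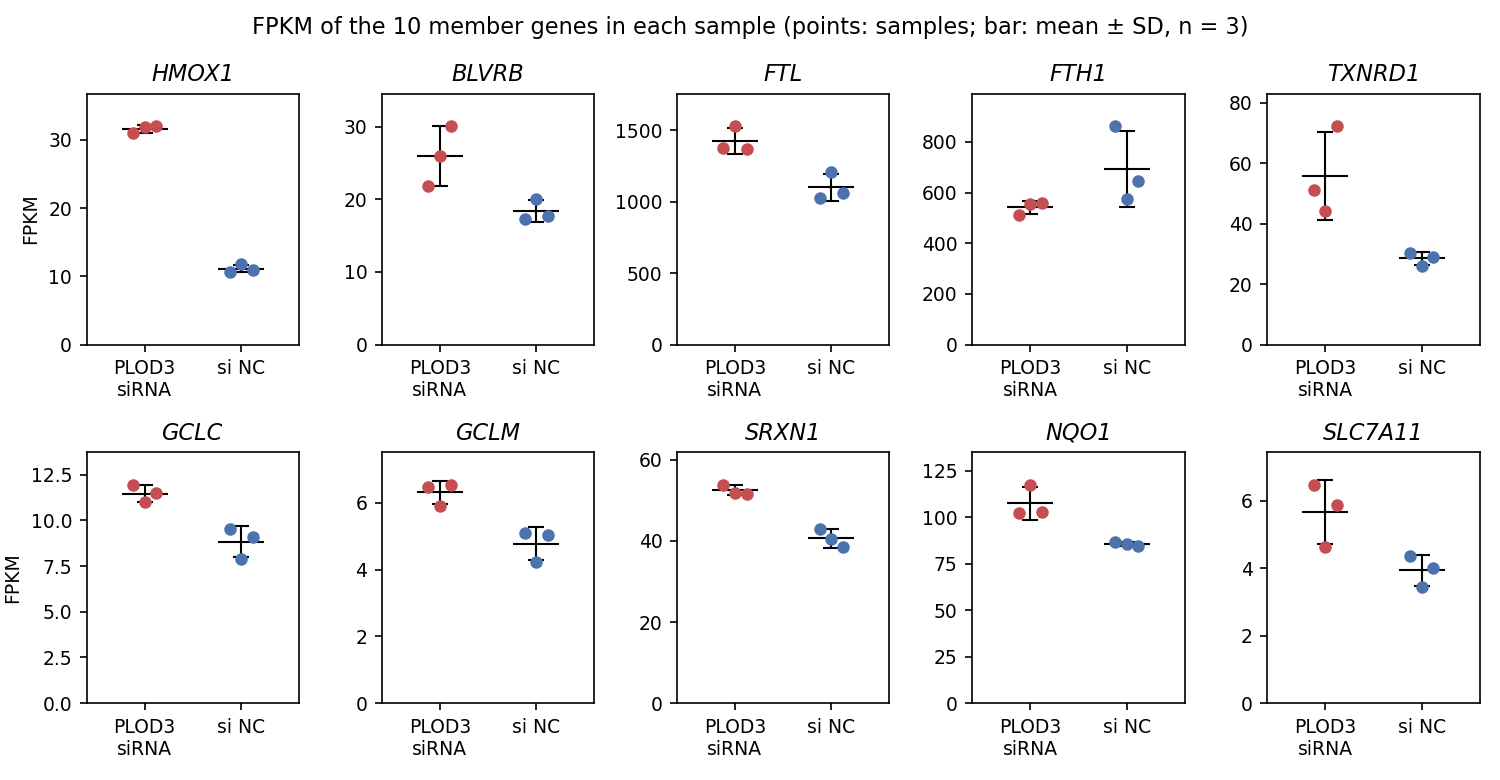
FPKM of each of the 10 genes in every sample (points), with the mean and SD of 3 samples (bars), PLOD3 siRNA on the left of each panel and si NC on the right. The groups are apart in every panel, with FTH1 lower after PLOD3 siRNA and the other 9 genes higher, and the widest gap relative to the spread is that of HMOX1, at 30.9 to 31.96 FPKM in PLOD3 siRNA against 10.7 to 11.7 FPKM in si NC.

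Among the heme-degrading genes, the enzyme that opens the ring differed most. HMOX1 (ENSG00000100292, chromosome 22, 35380361 to 35390293, plus strand, GRCh38) had 30.9, 31.9 and 31.96 FPKM in PLOD3 siRNA replicates 1 to 3, against 10.7, 11.7 and 11.0 FPKM in si NC. The 3 PLOD3 siRNA libraries lay close together and far above every si NC library, with means of 31.6 ± 0.570 FPKM in PLOD3 siRNA and 11.1 ± 0.544 FPKM in si NC (SD, n = 3 each). The log2 fold change was 1.51 (SE 0.0820), a fold of 2.85, and 99.5% of the tested genes had a lower log2 fold change. BLVRB (ENSG00000090013, chromosome 19, 40447765 to 40465764, minus strand) encodes a reductase of biliverdin and flavins. It had 21.9, 25.95 and 30.1 FPKM in PLOD3 siRNA replicates and 17.3, 20.1 and 17.7 FPKM in si NC, with means of 25.95 ± 4.10 FPKM in PLOD3 siRNA and 18.4 ± 1.48 FPKM in si NC and a log2 fold change of 0.50 (SE 0.138). The lowest PLOD3 siRNA value was just above the highest si NC value, and the PLOD3 siRNA libraries were more spread than for HMOX1. The HMOX1 to BLVRB ratio of FPKM was 1.42, 1.23 and 1.06 in PLOD3 siRNA samples and 0.617, 0.585 and 0.620 in si NC samples, so HMOX1 was the more abundant of the pair in every PLOD3 siRNA library and the less abundant in every si NC library.

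The ferritin chains, in all 6 libraries the most abundant of the 10 genes, differed in opposite directions. FTL (ENSG00000087086, chromosome 19, 48965309 to 48966879, plus strand), whose chain favours mineral formation in the shell and whose iron-responsive site is printed above, had 1374, 1529 and 1370 FPKM in PLOD3 siRNA samples, against 1030, 1208 and 1065 FPKM in si NC samples. Its means were 1424 ± 91.0 FPKM in PLOD3 siRNA and 1101 ± 94.2 FPKM in si NC (SD, n = 3 each), with a log2 fold change of 0.38 (SE 0.114). FTH1 (ENSG00000167996, chromosome 11, 61959718 to 61967634, minus strand), whose chain carries the ferroxidase activity, had 513, 554 and 558 FPKM in PLOD3 siRNA samples, against 862, 575 and 646 FPKM in si NC samples. Every PLOD3 siRNA FPKM lay below every si NC FPKM, but 558 and 575 FPKM are close and si NC replicate 1 stood far above the others. Relative to each library's total FPKM, the FTH1 values of the groups overlap. The means were 542 ± 24.8 FPKM in PLOD3 siRNA and 694 ± 149 FPKM in si NC, the log2 fold change was -0.35 (SE 0.145), and without si NC replicate 1 it was -0.18.

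The FTL to FTH1 ratio of FPKM was 2.68, 2.76 and 2.45 in PLOD3 siRNA samples and 1.20, 2.10 and 1.65 in si NC samples, with means of 2.63 ± 0.158 in PLOD3 siRNA and 1.65 ± 0.453 in si NC. The ratio was higher in each PLOD3 siRNA library than in any si NC library, and the si NC libraries differed among themselves more than those after PLOD3 siRNA. Summed ferritin FPKM was 1887, 2083 and 1928 in PLOD3 siRNA samples and 1892, 1783 and 1711 in si NC samples, so the groups overlapped in FPKM. Relative to each library's total FPKM, this sum was higher in every PLOD3 siRNA library than in every si NC library. Processed pseudogenes of FTH1 are near copies that can take its reads: 24 were in the table, 16 had counts, and together they reached 12.9 to 20.3% of FTH1's FPKM. The most abundant, FTH1P2, had 22.4 ± 2.33 FPKM in PLOD3 siRNA and 25.7 ± 2.88 FPKM in si NC. For FTL the corresponding 16 pseudogenes summed to 0.113 to 0.318% of its FPKM.

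**Figure D2:**
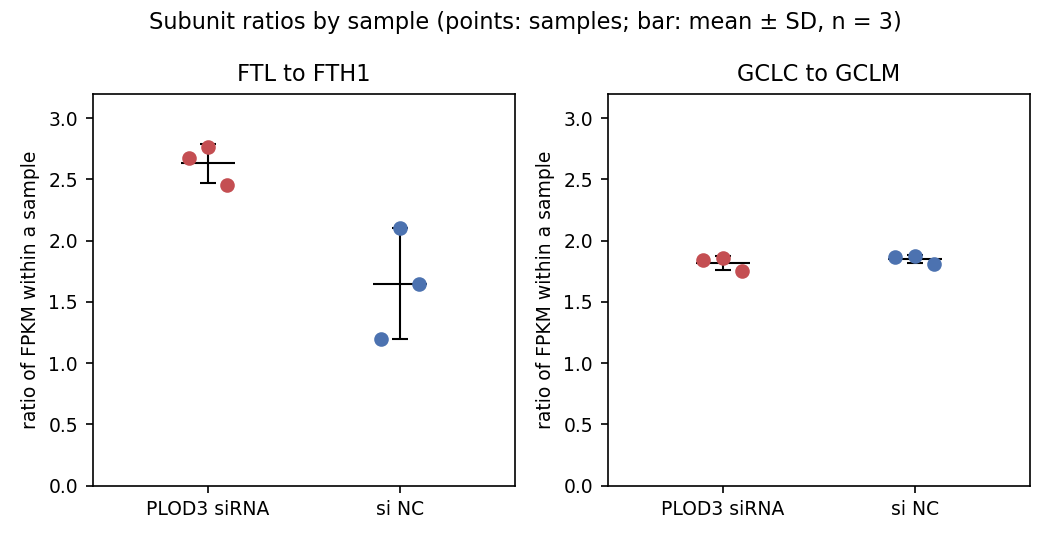
Ratio of FPKM within each sample (points) for the ferritin chains and for the subunits of glutamate-cysteine ligase, with the mean and SD of 3 samples (bars), PLOD3 siRNA left of si NC. FTL to FTH1 averaged 2.63 after PLOD3 siRNA and 1.65 in si NC without overlap, whereas GCLC to GCLM averaged 1.82 after PLOD3 siRNA and 1.85 in si NC with overlapping groups.

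Of the thioredoxin genes, TXNRD1 (ENSG00000198431, chromosome 12, 104215779 to 104350307, plus strand), the cytosolic selenoenzyme that reduces thioredoxin with NADPH, had 51.3, 44.3 and 72.3 FPKM in PLOD3 siRNA samples, against 30.4, 26.04 and 29.2 FPKM in si NC samples. PLOD3 siRNA replicate 3 was well above the other two, and even the lowest of the PLOD3 siRNA values exceeded all si NC values. The means were 56.0 ± 14.6 FPKM in PLOD3 siRNA and 28.5 ± 2.24 FPKM in si NC, with a log2 fold change of 0.97 (SE 0.166), and 0.76 without PLOD3 siRNA replicate 3. SRXN1 (ENSG00000271303, chromosome 20, 646615 to 653200, minus strand) encodes sulfiredoxin, which restores overoxidized peroxiredoxins. Its values were 53.9, 51.9 and 51.6 FPKM in PLOD3 siRNA samples and 43.0, 40.4 and 38.5 FPKM in si NC samples, with means of 52.5 ± 1.22 FPKM in PLOD3 siRNA and 40.6 ± 2.24 FPKM in si NC. The difference was small, at a log2 fold change of 0.37 (SE 0.0675), but the libraries of each group were tight. The pseudogene RPL18AP3 lies within TXNRD1 on the same strand, at a mean of 160 FPKM in PLOD3 siRNA and 152 FPKM in si NC. EID3, also on that strand, averaged 0.623 FPKM in PLOD3 siRNA and 0.210 FPKM in si NC, too low to be tested. AC089983, on the opposite strand, averaged 1.79 FPKM in PLOD3 siRNA and 0.986 FPKM in si NC (log2 0.87, edgeR adjusted p = 0.0446). The counting of reads shared between overlapping genes is not given in the sources used here.

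The glutathione synthesis genes showed smaller differences at lower levels. SLC7A11 (ENSG00000151012, chromosome 4, 138164097 to 138242349, minus strand), the cystine importing chain of the cystine/glutamate exchanger, had 6.48, 4.64 and 5.88 FPKM in PLOD3 siRNA samples, against 4.37, 3.45 and 3.998 FPKM in si NC samples. Its log2 fold change was 0.53 (SE 0.126), with means of 5.67 ± 0.939 FPKM in PLOD3 siRNA and 3.94 ± 0.460 FPKM in si NC, and PLOD3 siRNA replicate 2 came close to the highest si NC library. GCLC (ENSG00000001084, chromosome 6, 53497341 to 53616970, minus strand), the catalytic subunit of the ligase that limits glutathione synthesis, had 11.95, 11.0 and 11.5 FPKM in PLOD3 siRNA samples and 9.50, 7.91 and 9.11 FPKM in si NC samples, a log2 fold change of 0.38 (SE 0.0787). Its modifier subunit GCLM (ENSG00000023909, chromosome 1, 93885199 to 93909456, minus strand), whose promoter stretch is printed above, had 6.49, 5.92 and 6.55 FPKM in PLOD3 siRNA samples and 5.09, 4.22 and 5.03 FPKM in si NC samples, a log2 fold change of 0.41 (SE 0.0928). For both subunits, replicate 2 was the lowest library in its group.

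For the proportion of the subunits, the groups overlapped: the GCLC to GCLM ratio of FPKM was 1.84, 1.86 and 1.75 in PLOD3 siRNA samples and 1.87, 1.87 and 1.81 in si NC samples. This was unlike the ferritin chains, where the ratio separated the groups. NQO1 (ENSG00000181019, chromosome 16, 69706996 to 69726668, minus strand), a quinone reductase often used as a readout of NRF2, had 102, 117 and 103 FPKM in PLOD3 siRNA samples, against 86.4, 85.6 and 84.6 FPKM in si NC samples. Its fold was 1.26 (log2 0.34, SE 0.0933), the smallest of the 9 higher genes, and the si NC libraries were almost equal.

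**Figure D3:**
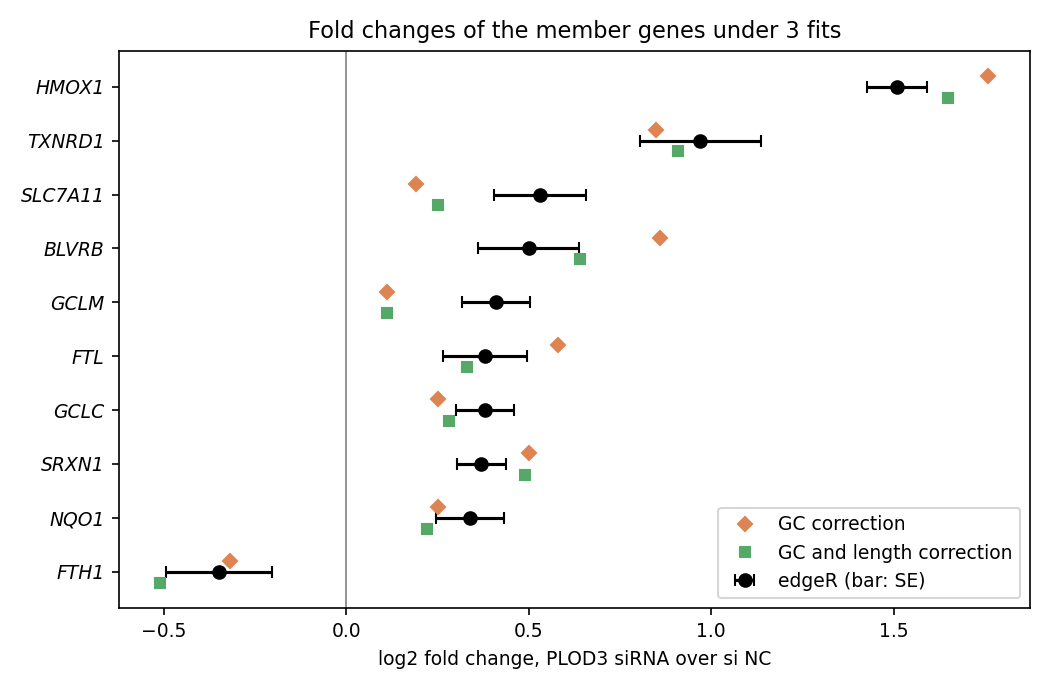
Log2 fold change of PLOD3 siRNA over si NC for each of the 10 genes (points) with its standard error (bars), as fitted by edgeR on 3 samples per group. Diamonds show the fit with GC correction and squares the fit with GC content and length corrected. Without correction, HMOX1 at 1.51 and TXNRD1 at 0.97 stand apart from 7 genes between 0.34 and 0.53. FTH1 is the one gene below 0, at -0.35 without correction. With GC correction BLVRB at 0.86 lies beside TXNRD1 at 0.85, and GCLM lies at 0.11.

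By level, FTL led in both groups and was followed by FTH1 and NQO1, with no overlap between neighbours within a group. After PLOD3 siRNA the next were TXNRD1 and SRXN1, whose ranges overlapped, and then HMOX1, BLVRB and GCLC without overlap. In si NC the order of these was SRXN1, TXNRD1, BLVRB, HMOX1 and GCLC, so HMOX1 and TXNRD1 each stood 1 place higher after PLOD3 siRNA. GCLM and SLC7A11 were the lowest in both groups, and their ranges overlapped in each. Over all 6 samples the mean FPKM per gene ran between 4.804 for SLC7A11 and 1263 for FTL. The FTL to HMOX1 ratio, which sets iron storage against heme opening, was 44.4, 47.9 and 42.9 in PLOD3 siRNA samples and 96.5, 103 and 96.9 in si NC samples.

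Whether a gene passed the threshold under other settings is given as a description of the same values that chose the genes, and adds no weight to the differences. HMOX1, TXNRD1 and SRXN1 passed the threshold in all 6 fits that left out 1 library and in each of 13 other alternatives, and GCLC in all 6 and in 12 of 13. With each library left out in turn, FTL passed in 1 of 6 fits, BLVRB in 2, NQO1 in 3, SLC7A11 in 4 and GCLM in 5. FTL passed only without si NC replicate 2, and BLVRB only without si NC replicate 2 or PLOD3 siRNA replicate 1. NQO1 did not pass without any one of the si NC replicates, SLC7A11 without PLOD3 siRNA replicate 1 or si NC replicate 2, and GCLM without PLOD3 siRNA replicate 1. GC content of the transcript differed widely among the genes, at 63.3% for BLVRB, 58.1% for HMOX1, 37.3% for GCLM and 35.4% for SLC7A11. With counts corrected for GC content within each sample, the log2 fold change was 1.76 for HMOX1, 0.86 for BLVRB, 0.58 for FTL, 0.50 for SRXN1 and 0.85 for TXNRD1, against 0.25 for GCLC and for NQO1, 0.19 for SLC7A11 and 0.11 for GCLM. GCLM, NQO1 and SLC7A11 no longer passed after this correction, and with GC content and length corrected FTH1 passed as lower at -0.51. The cause of the GC dependence was not tested.

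Few of the regulators passed the test. Of 11 NRF2 regulators, 0 passed the test as higher, against 16.5% of all tested genes. As lower 2 passed (18.2%, near the 19.4% of all tested genes), and the median log2 fold change was -0.09. The number that passed as higher was 1 in DESeq2, 1 after GC correction and 2 on the TPM scale. The number that passed as lower was 3 in DESeq2, 1 after GC correction and 0 on the TPM scale. NFE2L2, which encodes NRF2, had 24.1, 23.0 and 23.8 FPKM in PLOD3 siRNA samples, against 5.81, 17.6 and 19.6 FPKM in si NC samples (log2 0.72, SE 0.467, edgeR adjusted p = 0.285). The groups did not overlap, and the low value of si NC replicate 1 made the spread wide: without it the log2 fold change was 0.34 with an edgeR adjusted p of 0.0285. KEAP1, the adaptor that marks NRF2 for degradation, averaged 22.4 ± 1.08 FPKM in PLOD3 siRNA and 24.0 ± 2.76 FPKM in si NC (log2 -0.09, edgeR adjusted p = 0.51). Its sign turned after GC correction (0.20), and on the TPM scale it stood at 0.01. BACH1 had 2.18, 1.96 and 2.18 FPKM in PLOD3 siRNA samples and 2.24, 1.45 and 2.13 FPKM in si NC samples, which overlap (edgeR adjusted p = 0.57).

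The 2 regulators that fell were small Maf genes, whose products are the DNA-binding partners of both NRF2 and BACH1. MAFG had 4.14, 2.87 and 6.54 FPKM in PLOD3 siRNA samples, against 14.0, 7.21 and 14.5 FPKM in si NC samples (log2 -1.40, SE 0.389, edgeR adjusted p = 0.041). MAFK had 1.89, 1.77 and 2.05 FPKM in PLOD3 siRNA samples and 6.04, 2.28 and 6.48 FPKM in si NC samples (log2 -1.36, SE 0.383, edgeR adjusted p = 0.0392). In both, si NC replicate 2 was the lowest si NC library and still above the PLOD3 siRNA libraries. Both calls rested on the setting: GC correction gave MAFG an edgeR adjusted p of 0.0806, and leaving out 1 library, other than PLOD3 siRNA replicate 3 or si NC replicate 2 for MAFG and si NC replicate 2 for MAFK, ended them (adjusted p 0.0958 to 0.125 for MAFG and 0.0944 to 0.116 for MAFK).

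Of 17 tested genes of heme synthesis, transport and degradation, 1 rose (5.88%, against 16.5% of all tested genes) and 4 fell (23.5%, against 19.4%), with a median log2 fold change of -0.11. The gene that rose was PGRMC1, a heme-binding membrane protein, at 54.5 ± 1.35 FPKM in PLOD3 siRNA and 42.4 ± 1.96 FPKM in si NC (log2 0.37, edgeR adjusted p = 0.0078). Those that fell were the heme-binding protein HEBP1 (5.38 ± 0.227 FPKM in PLOD3 siRNA and 7.88 ± 0.305 FPKM in si NC, log2 -0.54, edgeR adjusted p = 0.00609) and the synthesis enzymes FECH, ALAD and CPOX. FECH, which inserts the iron, had a log2 fold change of -0.43 (edgeR adjusted p = 0.0206), ALAD of -0.40 (0.0216) and CPOX, named after its value was seen, of -0.44 (0.0274). The constitutive heme oxygenase HMOX2 averaged 14.2 ± 0.814 FPKM in PLOD3 siRNA and 12.7 ± 0.284 FPKM in si NC (log2 0.16, edgeR adjusted p = 0.179), and 0.37 with an adjusted p of 0.0208 after GC correction. The main biliverdin reductase gene BLVRA averaged 15.3 ± 2.08 FPKM in PLOD3 siRNA and 15.3 ± 0.801 FPKM in si NC. The number that fell was 2 without si NC replicate 1 or any one of the PLOD3 siRNA replicates, 3 without si NC replicate 2, 1 without si NC replicate 3 and 1 on the TPM scale, and HEBP1 passed in each of these fits. With GC content and length corrected PGRMC1 stood at 0.12 (edgeR adjusted p = 0.0968), and GC correction ended the call of ALAD (0.0619).

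Among 14 tested genes of iron uptake, release and regulation, 3 rose (21.4%, against 16.5% of all tested genes) and 4 fell (28.6%, against 19.4%), with a median log2 fold change of 0.07. Those that rose act on ferritin and its regulators. NCOA4, the receptor that delivers ferritin to autophagy, had 43.6, 42.8 and 39.2 FPKM in PLOD3 siRNA samples, against 32.4, 29.7 and 35.0 FPKM in si NC samples (log2 0.38, SE 0.089, edgeR adjusted p = 0.018). IREB2, the iron regulatory protein that binds sites such as the one of FTL, averaged 6.92 ± 0.370 FPKM in PLOD3 siRNA and 5.21 ± 0.832 FPKM in si NC (log2 0.42, edgeR adjusted p = 0.0294). FBXL5, the iron-sensing ligase subunit that removes IREB2 protein, averaged 6.21 ± 0.209 FPKM in PLOD3 siRNA and 4.64 ± 0.207 FPKM in si NC (log2 0.43, edgeR adjusted p = 0.0114). After GC correction none of these 3 passed in edgeR, with adjusted p of 0.0846 for NCOA4, 0.185 for IREB2 and 0.147 for FBXL5. Leaving out PLOD3 siRNA replicate 1 or 2 ended the calls of NCOA4 (0.0611 and 0.0506) and IREB2 (0.087 and 0.0683), si NC replicate 1 or 2 that of NCOA4 (0.0515 and 0.0505), and PLOD3 siRNA replicate 3 that of IREB2 (0.0528).

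The iron genes that fell were STEAP3 (log2 -0.50, edgeR adjusted p = 0.0111) and CYBRD1 (-0.41, 0.0135), both iron reductases, the iron chaperone gene PCBP2 (-0.30, 0.0176) and the mitochondrial iron importer gene SLC25A37 (-0.38, 0.0463, named after its value was seen). On the TPM scale none of the 4 passed in limma, and the number that fell was 2 without si NC replicate 3. SLC25A37 was also lost in 4 of the 6 fits without 1 library (edgeR adjusted p 0.125 to 0.129, without PLOD3 siRNA replicate 1 or 2 or si NC replicate 2 or 3). Its call ended as well with both other scalings (0.0507 and 0.0542), without the filter (0.0533) and with the replicate block (0.0522). Nor did it pass after GC correction (0.0693) or in either limma FPKM fit (0.0622 and 0.0635). STEAP3 was lost after GC correction (edgeR adjusted p = 0.0795). The transferrin receptor gene TFRC had 46.3, 54.2 and 53.2 FPKM in PLOD3 siRNA samples, against 44.9, 37.0 and 42.5 FPKM in si NC samples (log2 0.32, edgeR adjusted p = 0.0526). It passed as higher in DESeq2 at 0.0269, with both other scalings and without the filter on low values. It also passed on the TPM scale and without PLOD3 siRNA replicate 1, but not after GC correction. ACO1, the other iron regulatory protein, averaged 9.05 ± 0.756 FPKM in PLOD3 siRNA and 10.5 ± 0.396 FPKM in si NC (log2 -0.21, edgeR adjusted p = 0.0555). It passed as lower after GC correction (log2 -0.31, edgeR adjusted p = 0.0178), also with the replicate block (0.0498), and at a mean of at least 5 FPKM (0.0354). The iron exporter gene SLC40A1 was too low to be tested, at 0.303 ± 0.135 FPKM in PLOD3 siRNA and 0.412 ± 0.0780 FPKM in si NC.

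Of 25 tested genes of glutathione synthesis and use, 6 rose (24.0%, against 16.5% of all tested genes) and 2 fell (8.0%, against 19.4%), with a median log2 fold change of -0.01. CHAC2, a glutathione-degrading enzyme, averaged 7.44 ± 0.619 FPKM in PLOD3 siRNA and 4.34 ± 0.183 FPKM in si NC (log2 0.79, edgeR adjusted p = 0.00503). GLRX3, an iron-sulfur glutaredoxin, rose by 0.65 on the log2 scale (edgeR adjusted p = 0.00375), the methylglyoxal-clearing enzyme GLO1 by 0.54 (0.00647) and the microsomal transferase MGST1 by 0.44 (0.00526). SLC3A2, the heavy chain that carries SLC7A11 to the membrane, had 35.3, 31.4 and 36.1 FPKM in PLOD3 siRNA samples, against 26.5, 30.3 and 28.3 FPKM in si NC samples (log2 0.27, SE 0.0848, edgeR adjusted p = 0.0432), and each fit without 1 library, other than si NC replicate 2, gave 0.0546 to 0.118. The genes that fell were GGT7 (log2 -0.75) and GSTM4 (-0.56), with edgeR adjusted p of 0.00745 and 0.00721. GSS, the enzyme that follows the ligase, averaged 8.75 ± 0.707 FPKM in PLOD3 siRNA and 8.85 ± 1.28 FPKM in si NC (log2 -0.01, SE 0.126). With GC content and length corrected, 2 genes of this list passed as higher and 4 as lower, MGST1 stood at -0.07, and CHAC2 stood at 0.34 (edgeR adjusted p = 0.0581). GC correction alone ended the calls of MGST1 (edgeR adjusted p = 0.849), GLO1 (0.0525) and GGT7 (0.0617).

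In the thioredoxin system, 7 of 15 tested genes rose (46.7%, against 16.5% of all tested genes) and 2 fell (13.3%, against 19.4%), with a median log2 fold change of 0.30. TXN, the substrate of TXNRD1, had 227, 278 and 225 FPKM in PLOD3 siRNA samples, against 161, 156 and 167 FPKM in si NC samples, well apart (log2 0.60, SE 0.115, edgeR adjusted p = 0.00889). SESN1 and SESN2, stress-induced partners of the peroxiredoxin system, rose by 0.82 (edgeR adjusted p = 0.0105) and 0.41 (0.0123) on the log2 scale, and TXN2, TXNL1, TXNDC9 and TXNDC17 by 0.30 to 0.52. The genes that fell were the methionine sulfoxide reductases MSRB2, at 2.88 ± 0.107 FPKM in PLOD3 siRNA and 4.78 ± 0.259 FPKM in si NC (log2 -0.72, edgeR adjusted p = 0.00486), and MSRB3 (-0.41, 0.0186). The mitochondrial TXNRD2 averaged 1.85 ± 0.0863 FPKM in PLOD3 siRNA and 1.896 ± 0.119 FPKM in si NC (log2 -0.02, edgeR adjusted p = 0.894). The number that rose was 3 without si NC replicate 3, 4 without PLOD3 siRNA replicate 1, PLOD3 siRNA replicate 2 or si NC replicate 2, and 4 with GC content and length corrected. TXN, TXN2 and SESN1 passed in every alternative that tested them, while TXNL1, TXNDC9 and TXNDC17 did not pass after GC correction (edgeR adjusted p 0.957, 0.249 and 0.127).

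Of 27 tested genes otherwise known as NRF2 targets, 1 rose (3.7%, against 16.5% of all tested genes) and 6 fell (22.2%, against 19.4%), with a median log2 fold change of -0.08. PRDX1, a peroxiredoxin, had 831, 923 and 760 FPKM in PLOD3 siRNA samples and 682, 641 and 657 FPKM in si NC samples (log2 0.35, edgeR adjusted p = 0.0411). EPHX1, which hydrolyses epoxides, had 16.4, 15.8 and 17.2 FPKM in PLOD3 siRNA samples, against 29.7, 30.8 and 29.6 FPKM in si NC samples (log2 -0.86, SE 0.069, edgeR adjusted p = 0.00136). The conjugate exporter ABCC2 had 24.8, 20.6 and 24.9 FPKM in PLOD3 siRNA samples, against 56.2, 39.7 and 54.0 FPKM in si NC samples (log2 -1.09, edgeR adjusted p = 0.00258), and the exporters ABCC3 (-1.11, 0.00178) and ABCC1 (-0.83, 0.00494) fell with it. PGD, an NADPH-forming enzyme, fell by 0.29 on the log2 scale (edgeR adjusted p = 0.0395). PRDX1 and PGD were named after their values were seen. EPHX1, ABCC2 and ABCC3 passed in every alternative that tested them, and 5 to 7 genes of the list passed as lower when any 1 library was left out. With GC content and length corrected ABCC1 stood at -0.44 (edgeR adjusted p = 0.0888). PRDX1 passed only in the fit without PLOD3 siRNA replicate 3 among those (edgeR adjusted p 0.0528 to 0.105 in the others), and PGD in none (0.0517 to 0.116).

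Over all 6 lists, 18 of 109 tested genes rose (16.5%) and 20 fell (18.3%), against 16.5% and 19.4% of all tested genes. The share of these pathway genes that changed was thus near that of the transcriptome, and their median log2 fold change was -0.02. The number that rose was 11 without PLOD3 siRNA replicate 1 and 10 without PLOD3 siRNA replicate 2, and the number that fell was 11 without si NC replicate 3. The lists hold none of the 10 genes described above.

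**Figure D4:**
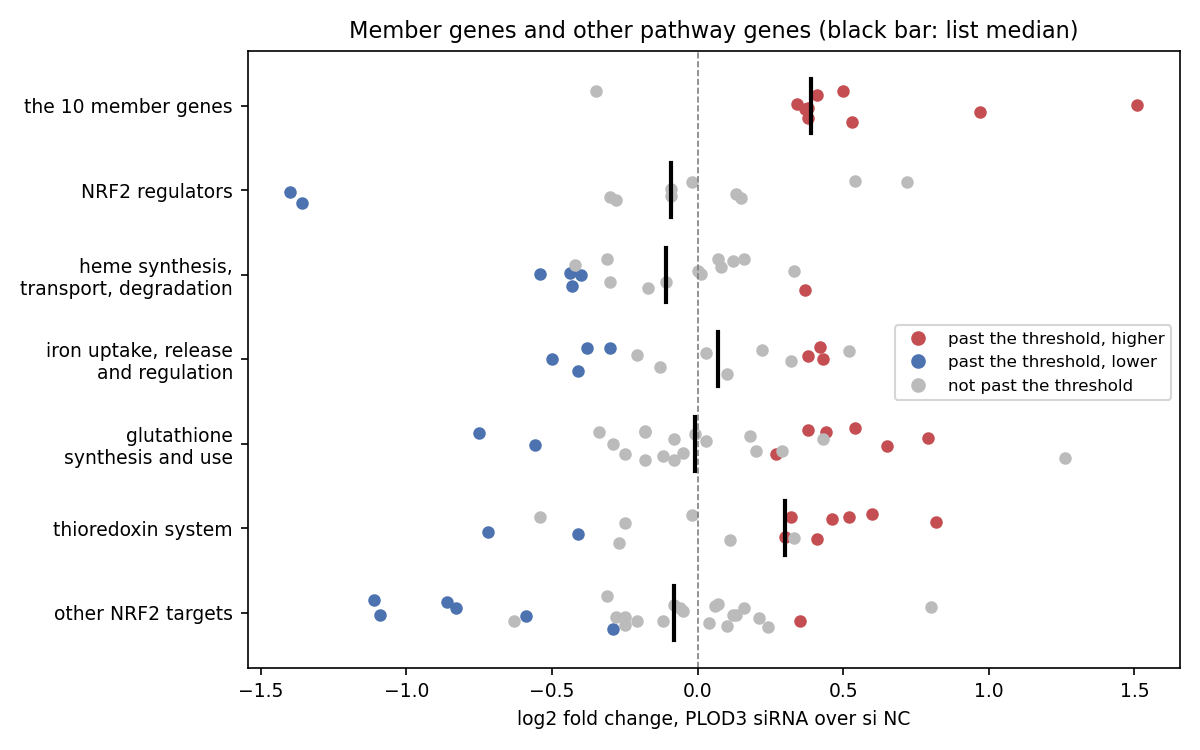
Log2 fold change of PLOD3 siRNA over si NC for every tested gene of the 6 lists and for the 10 genes, 1 point per gene, with a black bar at each list's median. Colour shows which genes passed an edgeR adjusted p of 0.05 as higher or lower; the thioredoxin list has its median at 0.30, and the other 5 lists lie between -0.11 and 0.07.

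The pattern of HMOX1 over the 6 samples was set against 9385 tested genes with a mean of at least 2 FPKM. The measure was the root mean square difference of log2(FPKM + 1), with each gene centred on its si NC mean. On this measure the closest were SNORD15B (0.110), ERCC5 (0.182), SNORD20 (0.194), SNORA63B (0.230) and HSPA8 (0.276). The added 1 narrows differences at low FPKM, so the order depends on it. Fitted log2 fold changes of SNORD15B, ERCC5 and SNORD20 were above the 1.51 of HMOX1, up to 2.29 for SNORD20. That of SNORA63B was 1.53 and that of HSPA8 was 1.08. How well these libraries measured RNAs as short as the small nucleolar ones was not tested. HSPA8, the constitutive heat shock cognate chaperone, had 608, 628 and 527 FPKM in PLOD3 siRNA samples, against 284, 270 and 284 FPKM in si NC samples. ERCC5, an excision repair nuclease that shares its position with a readthrough gene and so is uncertain, averaged 4.29 ± 0.194 FPKM in PLOD3 siRNA and 0.929 ± 0.381 FPKM in si NC. The small nucleolar RNA SNORD15B averaged 5.38 ± 0.598 FPKM in PLOD3 siRNA and 1.40 ± 0.216 FPKM in si NC, SNORD20 4.40 ± 0.120 FPKM in PLOD3 siRNA and 0.822 ± 0.364 FPKM in si NC, and SNORA63B 10.4 ± 2.59 FPKM in PLOD3 siRNA and 3.59 ± 0.0366 FPKM in si NC. These likenesses were found over the same 6 samples and describe them only.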

How the data were processed

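RNA-seq of 6 HCT116 samples was used, grouped by their titles into 3 PLOD3 siRNA and 3 si NC samples. The authors deposited 1 table of 60612 genes with 12 value columns, of which 0 were left unmapped. Its FPKM columns, per the file headers, were used as the authors deposited them; the 0.0001 that stands there for no reads was read as 0. Its other columns are estimated counts, which the authors deposited as whole numbers without normalization. Tools listed in the submitters' processing notes are cutadapt 1.9, HISAT2 2.0.4 and also StringTie 1.3.4d. For build, annotation, strand setting and counting method, the record is silent: not given in the sources used here. By identifier 96.3% of the genes were found in GENCODE 29, and 99.98% of those overlapped their place there, so coordinates were read as GRCh38. A mean of 1490 genes per sample stood at a count of 4, against 558 at 3 and 312 at 5, so the counts may overstate read pairs. Whether about 4 units stand for 1 read pair over all counts was not tested.

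The counts, already whole, went into edgeR 4.0.16 in R 4.3.3 (TMM, robust dispersions, quasi-likelihood test, two-sided, all 6 samples, no covariate) for the 12000 genes with a mean of at least 1 FPKM, with Benjamini-Hochberg adjustment over all of them and a threshold of 0.05. The script was tested on simulated data. Each fold change is the log2 of PLOD3 siRNA over si NC. Levels are mean FPKM ± SD, n = 3. The labels do not say whether a group's samples came from separate cultures; p-values thus reflect the spread between these 6 samples alone, which could be technical. Without a stated strand setting, overlapping antisense genes cannot be told apart from their partners.

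The 10 genes and the lists were chosen with earlier results of these data known. Named were the 10 genes, PLOD3, listed regulators and partners, up to 4 genes per list with the smallest p among those past the threshold, and the 5 genes most like HMOX1, with exceptions stated where they occur. Alternatives were DESeq2 1.42.0, limma 3.58.1 on log2(FPKM + 1), log2(FPKM + 0.1) and log2(TPM + 1), 2 other scalings, other filters, counts divided by 4, GC and length corrections, a replicate block, and leaving out each sample. Sequences are from RefSeq, GRCh38.p14. Values of 2 listed genes are not reported here.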

Additional observations from a re-analysis of the deposited data

How the results depend on the processing

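PLOD3, lower in the main analysis at a log2 fold change of -0.85, passed under every alternative, at -0.92 to -0.48. Called genes numbered 1976 higher and 2331 lower, against 1205 and 1355 at a mean of at least 5 FPKM, 2471 and 1460 on the TPM scale, 1160 and 1302 with the replicate block and GC correction, and 1181 to 1693 and 1582 to 2031 without 1 library (1181 higher without PLOD3 siRNA replicate 1, 1182 without si NC replicate 3). Of the 10 genes, 5 passed as higher with the block and GC correction, 6 to 7 without 1 library, and FTH1 as 1 lower with GC content and length corrected. Of the other pathway genes, 8 passed as higher with GC content and length corrected, 10 with the block and GC correction, 10 to 18 without 1 library, and 9 as lower on the TPM scale, 11 to 17 without 1 library. Replicate numbers did not pair the samples (correlations 0.0486, -0.0107 and -0.0230), and with the number as a block 1575 genes were higher, 1936 lower and 9 of the 10 genes passed. Signs turned for 6 genes, of which only MGST1 had passed the test. KEAP1 stood at 0.01 (TPM), 0.20 (GC), 0.25 (GC and length) and 0.21 (block and GC). BACH1 stood at -0.14, -0.09 and -0.13 under the last 3 of these and at -0.03 to 0.23 without 1 library (-0.03 without si NC replicate 2). BLVRA stood at -0.03 at 5 FPKM, -0.00 in both limma FPKM fits, -0.14 (GC and length) and -0.13 to 0.10 without 1 library. GSS stood at 0.00 (upper quartile, no filter), 0.09 (TPM), 0.15 (GC, also with the block), 0.14 (GC and length) and -0.11 to 0.07 without 1 library. TXNRD2 stood at 0.06 (TPM), 0.32 (GC, also with the block), 0.39 (GC and length) and -0.08 to 0.04 without 1 library. MGST1, at 0.44 in the main analysis, stood at -0.07 with GC content and length corrected. The cause was not tested. With 3 samples a group, the precision is limited by the spread between libraries.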

Other observations

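Several genes of the lists had a single library far from the others of its group, and these were picked after their values were seen. The glutathione peroxidase gene GPX1 had 17.5, 19.9 and 94.1 FPKM in PLOD3 siRNA replicates 1 to 3, against 17.0, 20.6 and 17.0 FPKM in si NC replicates. PLOD3 siRNA replicate 3 alone was high there, and the edgeR adjusted p was 0.232. The glutathione reductase gene GSR had 30.6, 26.2 and 50.6 FPKM in PLOD3 siRNA samples and 51.5, 46.1 and 30.1 FPKM in si NC samples, so replicate 3 of each group stood at the level of the other group. Its log2 fold change was -0.25 with an edgeR adjusted p of 0.56. For NFE2L2 and FTH1 the library apart was si NC replicate 1, low for NFE2L2 at 5.81 FPKM and high for FTH1 at 862 FPKM.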
